A study of Mus musculus with 96 samples.

Results

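Translational efficiency, the number of ribosome footprints on a coding sequence per unit of its mRNA, was compared between neural tubes of mutant and wild-type mouse embryos. All embryos were at E11.5 on the C3HeB background. The mutant embryos carried 1 copy of the Eif3c Xs-J allele beside a wild-type copy, and the wild-type embryos carried none. Each genotype had 3 pools of cells. Per the labels' protocols, the neural tubes of 1 litter were dissociated with papain and the cells divided between a tube for poly(A) RNA-seq and a tube for ribosome profiling. This gave 12 libraries, which GEO lists as 96 lane samples. The change was calculated as the mutant footprint to RNA ratio minus the wild-type ratio on the log2 scale, from coding counts without the first 15 and the last 5 codons, with RNA and footprints of 1 genotype and pool number kept together. It rests on 92 of the 96 lane samples. The other 4, from the first run of the footprints of mutant pool 1, held counts on 2 to 3 of 21 chromosomes and were left out. The labels do not say whether each of the 3 pools came from a litter of its own. The p-values therefore cover only variation among these pools, which may be technical.

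eIF3 is the largest of the translation initiation factors. It binds the small ribosomal subunit, helps to load initiator tRNA and mRNA, and some of its subunits contact particular mRNAs. Eif3c encodes a core subunit. In the neural tube at this stage, Sonic hedgehog from the floor plate patterns ventral progenitors through its receptor Ptch1, the membrane protein Smo and the Gli transcription factors. The title of the study names translational control of signaling transcripts by this factor as its question. Footprints per mRNA separate a change in ribosome occupancy from a change in mRNA level, but in bulk tissue fewer cells of a type and less RNA per cell cannot be told apart.

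Coding counts numbered 7200324 to 13137410 in the RNA libraries, 17278726 to 59202832 in the wild-type footprint libraries and 11310846 to 14842446 in the mutant footprint libraries. All 8 neural tube markers (Sox2, Pax6, Nes, Tubb3, Elavl3, Olig2, Pax3 and Hoxc8) were detected in every library, with a summed RNA level of 3308 to 3395 CPM (counts scaled to a common library size) in wild type and 2953 to 3224 CPM in the mutant. Genes of other cells were detected as well. Summed erythroid markers lay at 2943 to 3588 CPM in wild-type RNA and at 6543, 3696 and 3064 CPM in mutant pools 1, 2 and 3. Mesenchyme markers lay at 1186 to 1662 CPM and at 1237 to 1720 CPM. Endothelial markers reached 789 CPM in mutant pool 1 and lay at 479 to 572 CPM in the other 5 pools. Eif3c RNA itself stood at 503, 479.9 and 456 CPM in wild-type pools 1, 2 and 3 and at 281, 281 and 292 CPM in the mutant pools, and its footprints at 784, 767 and 767 CPM and 419.7, 368 and 394 CPM. Neither assay overlapped between genotypes, and Eif3c fell in both, by 0.75 in RNA and 0.98 in footprints on the log2 scale (edgeR adjusted p = 6.15e-04 and 0.00131). The log2 efficiencies of Eif3c (chr7:126546455-126566411, mm10) were 0.64, 0.68 and 0.75 in wild type and 0.58, 0.39 and 0.43 in the mutant. Every mutant pool lay lower, but the change of -0.22 ± 0.08 (SE of the fit) did not pass the test (edgeR adjusted p = 0.158).

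Few genes passed the test for a change in efficiency. Of 13877 genes tested, 113 passed an adjusted p of 0.05 in edgeR's quasi-likelihood test with the cell pool as a block, which is 0.814% of those tested. In the mutant 71 of them rose (0.512%) and 42 fell (0.303%). At an unadjusted p under 0.05, a much looser level, 1455 genes were higher (10.5%) and 1119 lower (8.06%). The 3 mutant pools all lay above the 3 wild-type pools for 1617 genes (11.7%) and all below for 1549 (11.2%). The test on each assay alone, a pair of comparisons that use the same libraries, called 52 of 13406 genes in RNA (0.388%) and 34 of 13423 in footprints (0.253%). These counts reached 1528 and 2333 without mutant pool 2 and were 1 or 2 in RNA and 8 to 12 in footprints when a wild-type pool was left out. Without mutant pool 3 they were 1 and 18. The median RNA change was -0.08 over the 70 rises tested in RNA, and the median footprint change was 0.51 over the 68 tested in footprints (log2). For the 42 falls these were 0.12 and -0.35. The median efficiency change was 0.62 for the rises and -0.43 for the falls. Pools did not overlap for 69 of the 71 rises, Col1a1 and the predicted gene Gm47283 being the exceptions, and for all 42 falls.

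The calls depended on the model. Without the replicate block, a model that treats RNA and footprints of 1 pool as unrelated samples, 0 genes passed and 1367 had an unadjusted p under 0.05. Limma on the 6 log2 ratios also gave 0, with 2077 unadjusted, and DESeq2 with the block gave 71. With the 4 incomplete lanes added, 0 passed, with 2118 unadjusted. Without wild-type pool 1, 2 or 3 the counts were 8, 10 and 4, and without mutant pool 1, 2 or 3 they were 24, 51 and 1005. Of the 113 genes, 112 passed without mutant pool 3, 42 without mutant pool 2, 20 without mutant pool 1, and 7, 7 and 4 without wild-type pools 1, 2 and 3. Serinc2, Uqcr11 and Rnpepl1 passed in all 6 of these fits. Scaling RNA and footprint libraries separately gave 88 genes with another split, 43 higher and 45 lower. The plot of calls by fit sets these counts side by side.

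**Figure D1:**
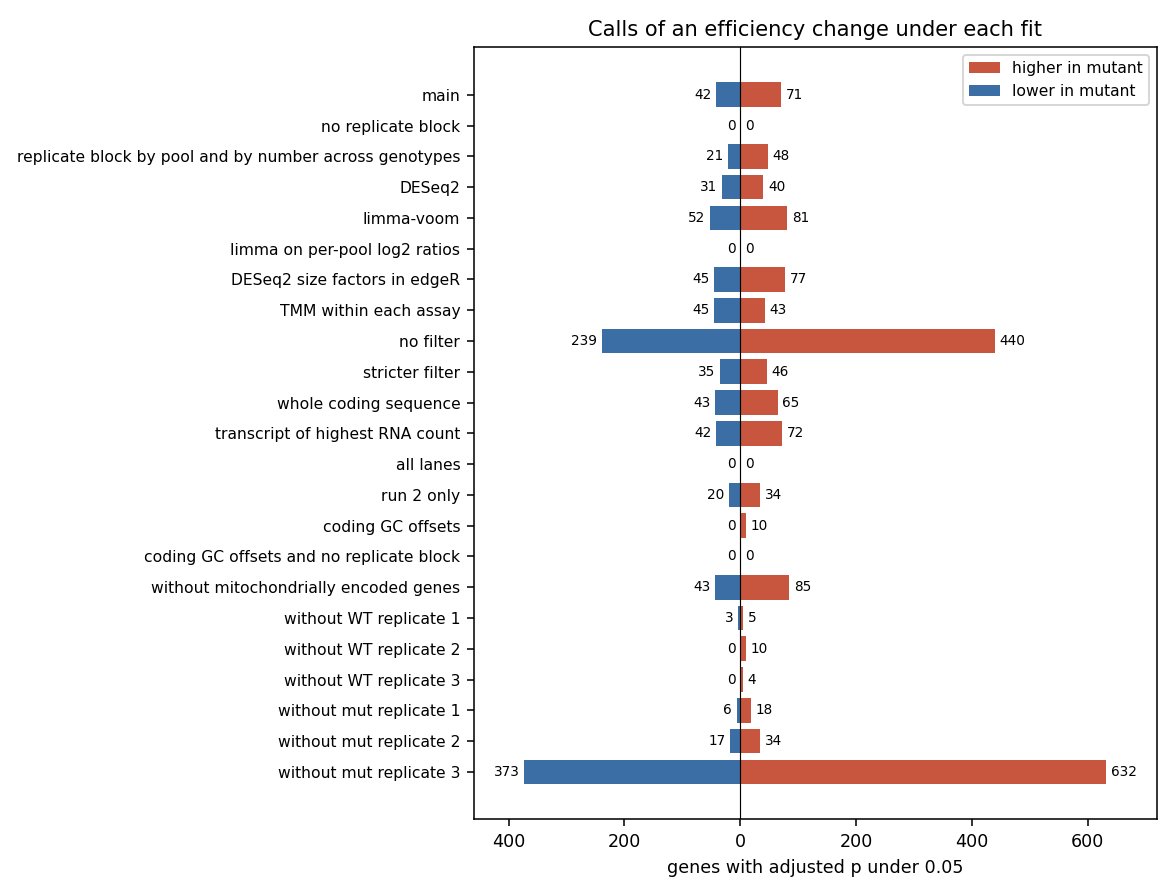
Number of genes with an adjusted p under 0.05 for a change in translational efficiency, higher in the mutant to the right and lower to the left, for the reported fit (main) and 22 alternatives. The reported fit has 71 and 42 genes, the fits without the replicate block have 0, and the fit without mutant replicate 3 has 632 and 373.

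Ranked by size among genes with at least 5 CPM in both assays, the 10 largest rises ran from 0.85 to 1.41 on the log2 scale. Serinc2, a membrane protein of the serine incorporator family (chr4:130253495-130279205), had footprints of 40.3, 49.3 and 54.4 CPM in wild-type pools 1, 2 and 3 and 95.7, 60.1 and 139 CPM in the mutant pools. Its RNA was 65.6, 60.6 and 58.03 CPM and 47.1, 40.6 and 50.97 CPM. Footprints were higher and RNA lower in every mutant pool, and the efficiency rose by 1.41 ± 0.17 on the log2 scale (edgeR adjusted p = 0.00305). Uqcr11, a small subunit of respiratory complex III (chr10:80402997-80406830), had log2 ratios of 0.04, 0.53 and 0.44 in wild type and 1.40, 2.04 and 1.63 in the mutant, a rise of 1.36 ± 0.19 (adjusted p = 0.00697). Its counted sequence is short, and 33.3% of its 28-base windows occur in transcripts of other genes. Rnpepl1, an aminopeptidase-like protein outside the 10 largest rises and named after its values were seen, had footprints of 7.83, 7.76 and 8.57 CPM and 13.5, 14.96 and 12.8 CPM on RNA of 50.8, 53.6 and 51.3 CPM and 46.4, 51.5 and 50.2 CPM. Its efficiency rose by 0.84 ± 0.12 (adjusted p = 0.00856), with the groups apart and the RNA nearly level.

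Trim71, an RNA-binding ubiquitin ligase of early progenitors (chr9:114507133-114564369), went from footprints of 4.20, 6.56 and 4.87 CPM to 17.5, 18.4 and 12 CPM. Its log2 efficiency was -2.39, -2.19 and -2.03 in wild type and -1.13, -0.40 and -1.47 in the mutant, a rise of 1.29 ± 0.21 (adjusted p = 0.0145). Fignl2, a fidgetin-like ATPase (chr15:101050194-101078567), moved from -1.85, -1.81 and -2.03 to -1.11, -0.07 and -1.20, a rise of 1.12 ± 0.20 (adjusted p = 0.0211). In both genes mutant pool 2 lay highest and pool 3 lowest of the mutant pools, with no overlap with wild type. Map3k10, a mixed-lineage kinase upstream of JNK (chr7:27656375-27674598), had footprints of 4.76, 4.87 and 5.19 CPM in wild type and 6.04, 24.7 and 6.87 CPM in the mutant. Its rise of 1.40 ± 0.31 (adjusted p = 0.0434) depended on mutant pool 2 for its size, although all 3 mutant pools lay above wild type. Without that pool it was 0.64 (adjusted p = 0.0703). Gas2l1, which links actin and microtubules, rose by 0.99 ± 0.17 (adjusted p = 0.0204), and Tmem203, a small membrane protein, by 0.85 ± 0.19 (adjusted p = 0.0469).

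Tdg, Chchd2 and Mrfap1 complete the 10 largest rises, but their reads can fit other genes. Tdg, a thymine DNA glycosylase of base excision repair, rose by 1.14 ± 0.22 (adjusted p = 0.0286), and 93.98% of its windows are shared with other transcripts. Chchd2, a mitochondrial protein, rose by 1.00 ± 0.22 (adjusted p = 0.0448) with 99.5% shared, and Mrfap1, a MORF4-associated protein, by 0.87 ± 0.13 (adjusted p = 0.00886) with 71.8% shared. Of the 68 rises with a known sequence, 13 shared more than 50% of their windows, as did 4 of the 40 falls. A further group of rises had larger folds on few counts. Mean footprints were under 5 CPM for 8 of the 71 rises and mean RNA for 4. Examples, chosen after their values were seen, are Tmem190 (4.38), Polr2l (3.21), Eppk1 (2.60), Tmsb10 (2.08) and Gdf1 (1.99, a bicistronic neighbour of Cers1). Polr2l, Tmsb10 and Gdf1 share 100% of their windows with other transcripts. Polr2l passed in none of the fits that left out 1 pool.

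**Figure D2:**
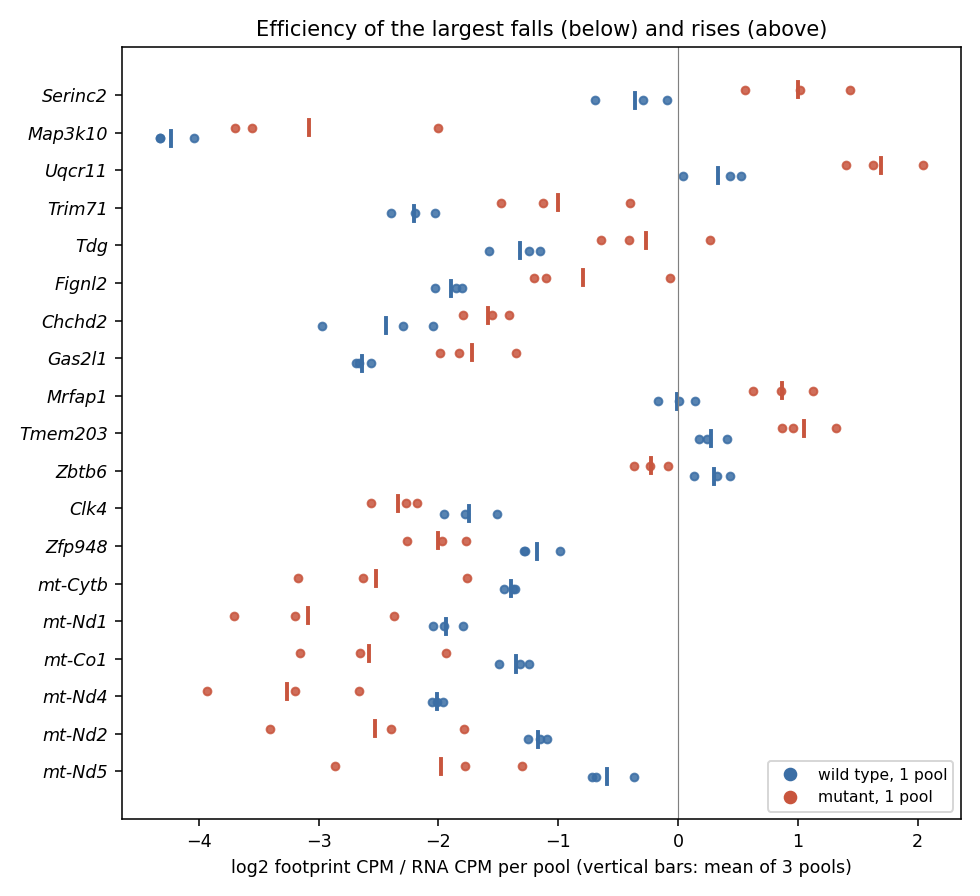
Log2 ratio of footprint CPM to RNA CPM (horizontal axis, with 0.5 CPM added to each) in each of 6 cell pools for the 10 largest rises and 9 of the 10 largest falls, ordered by change. Points are pools and bars are means of 3 pools. Wild-type and mutant pools do not overlap for any gene, which the choice of genes required, and the mutant pools of mt-Nd5 run from -2.86 to -1.30.

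The largest falls were in genes of the mitochondrial genome. Of 13 mitochondrially encoded proteins 8 were tested, 6 fell and none rose, where 0.303% of all genes tested fell and 0.512% rose. Their median change was -1.19 against 0.02 over all genes. It was -0.82 against 0.03 when each library was offset for its trend with coding GC content. mt-Nd5, a complex I subunit, had footprints of 904, 699 and 843 CPM in wild type and 361, 255 and 557 CPM in the mutant, while its RNA was 1487, 901 and 1357 CPM and 1243, 1858 and 1376 CPM. Its efficiency fell by 1.38 ± 0.24 (adjusted p = 0.0204). mt-Co1, the core of cytochrome oxidase, fell from log2 ratios of -1.50, -1.24 and -1.32 to -2.66, -3.16 and -1.94 (change -1.23 ± 0.19, adjusted p = 0.0102). mt-Nd2 (-1.35), mt-Nd4 (-1.24), mt-Nd1 (-1.15) and mt-Cytb (-1.12) also fell, and mt-Nd6 stood at -0.71 (adjusted p = 0.0743). mt-Nd3 stood at -0.26 without passing, and the fit gave no usable SE for it. Of the windows of mt-Co1 66.7% occur in transcripts of other genes, and of those of mt-Nd4 62.3%. In all 6 genes that fell, mutant pool 2 was lowest and mutant pool 3 nearest to wild type. These mRNAs are read by mitochondrial ribosomes, which do not use eIF3, and per the labels' protocols the footprint lysates were spun to remove mitochondria while the RNA tubes were not. How much mitochondrial material stayed in each lysate was not tested. A fit without the mitochondrial genes, added after the values were seen, called 128 genes, of which 85 were higher.

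The nuclear falls were smaller. Zfp948, a zinc finger protein (chr17:21567008-21588699), stood at -1.28, -1.28 and -0.98 in wild type and -1.97, -2.27 and -1.77 in the mutant (change -0.83 ± 0.15, adjusted p = 0.0221). Clk4, a kinase of splicing factors (chr11:51261730-51281766), had footprints of 37.3, 25.9 and 34.5 CPM and 18.8, 27.9 and 22.9 CPM and changed by -0.60 ± 0.12 (adjusted p = 0.0378). Zbtb6, a BTB zinc finger protein (chr2:37425500-37443171), moved from 0.43, 0.33 and 0.13 to -0.37, -0.08 and -0.23 (change -0.53 ± 0.12, adjusted p = 0.0434). Of the 42 falls, 32 lay between -0.53 and -0.34. They included, chosen after their values were seen, Knl1 (-0.46), a kinetochore scaffold, Smc4 (-0.37), a condensin subunit, and Esco2 (-0.46), a cohesin acetyltransferase. Bclaf1 (-0.43), Rbm25 (-0.38) and Thoc2 (-0.36), which act in RNA processing and export, fell as well.

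The called genes differed from all genes in base composition. The median GC content of the coding sequence was 63.2% among the rises, 41.4% among the falls and 53.3% over all genes with a sequence in the annotation. Of 68 rises with a value, 63 lay above the median of all genes, and of 40 falls 39 lay below it. When the 13248 genes were divided into 5 groups of equal size by coding GC content, 37 of the 40 falls were in the lowest group (up to 47.3% GC) and 52 of the 68 rises in the highest (from 58.5% GC). The relation covered the whole range and not only the called genes. The median change was -0.18, -0.06, 0.03, 0.11 and 0.21 from the lowest to the highest group. In the lowest group 13.3% of genes had a change above 0, and in the highest 85.3%. Across 13248 genes, which are not independent replicates, the change and coding GC content had a Spearman correlation of 0.594 and a Pearson correlation of 0.457. GC content at the last position of each codon gave 0.510 and 5′ UTR GC content 0.118 (Spearman).

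The difference was seen in every pool. The median efficiency of the highest GC group minus that of the lowest was -0.15, -0.14 and -0.14 in wild-type pools 1, 2 and 3 and 0.32, 0.21 and 0.10 in the mutant pools. The groups of pools did not overlap, and the means differed by 0.36 (exact two-sided permutation test over 3 and 3 pools, p = 0.1, the smallest this design can give, and 0.15 after Benjamini-Hochberg adjustment over efficiency, footprints and RNA). The same difference in footprints alone was -0.93, -0.85 and -0.86 log2 CPM in wild type and -0.43, -0.72 and -0.73 in the mutant, again without overlap (exact permutation test, p = 0.1, adjusted 0.15). In RNA it was -0.80, -0.74 and -0.79 in wild type and -0.76, -0.98 and -0.86 in the mutant, which overlapped (exact permutation test, p = 0.3). The mean coding GC content of footprints, weighted by CPM, was 52.2%, 52.3% and 52.2% in wild type and 52.8%, 52.5% and 52.5% in the mutant. The footprint value exceeded that of RNA by 0.17, 0.09 and 0.12 percentage points in wild type and by 0.90, 0.80 and 0.58 in the mutant. Mutant pool 3 lay nearest to wild type by this difference. It was also the nearest mutant pool for 35 of the 71 rises and 29 of the 42 falls. Pools 1 and 2 were nearest for 18 and 18 rises and for 6 and 7 falls. The nearest pool was not counted over all genes, so no share stands beside these counts. With the lanes of the second run alone, the highest minus the lowest group came to 0.40, as against 0.39 with both runs. Whether the composition of the libraries or the mRNAs themselves set this relation was not tested.

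**Figure D3:**
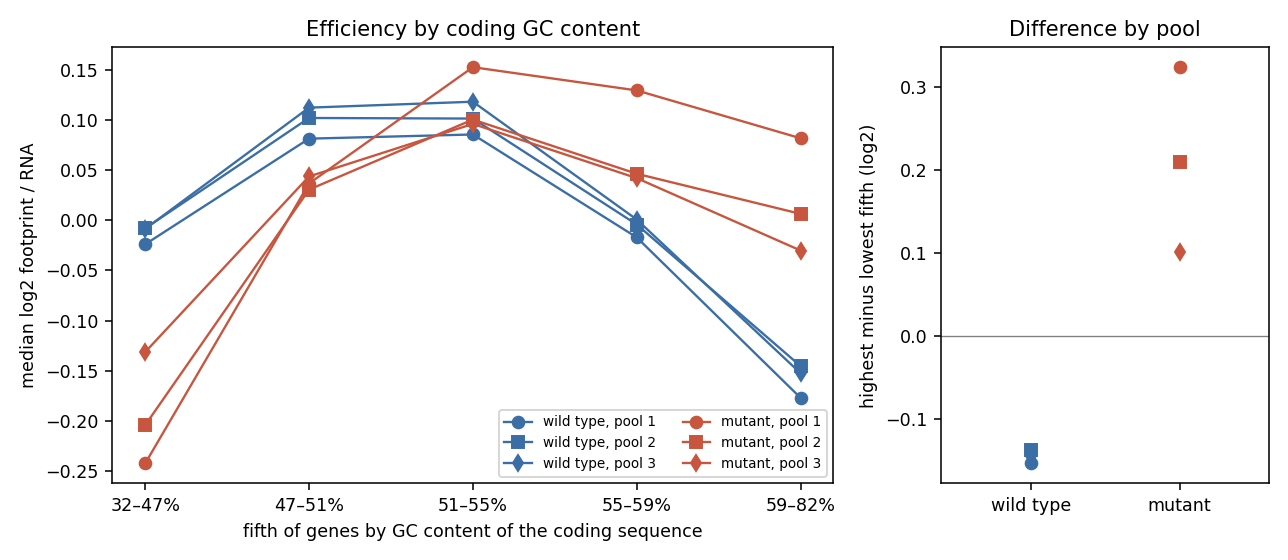
Left, median log2 footprint to RNA ratio of genes in 5 groups by GC content of the coding sequence (horizontal axis, range of each group) in each of 3 wild-type and 3 mutant pools. Right, highest minus lowest group per pool (vertical axis, log2), -0.15 to -0.14 in wild type and 0.10 to 0.32 in the mutant.

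Sequences from both ends of this range are shown to make the contrast visible. Shown are codons 16 to 35, the first 60 bases that entered the counts, of 3 rises and 3 falls, taken from GENCODE vM21 transcripts (mm10) and written 5′ to 3′ on the coding strand with G and C in capitals. Trim71, Map3k10 and Fignl2 (whole coding sequences of 63.8%, 63.9% and 73.6% GC) rose:
Trim71: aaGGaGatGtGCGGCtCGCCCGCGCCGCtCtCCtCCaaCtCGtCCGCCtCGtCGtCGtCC
Map3k10: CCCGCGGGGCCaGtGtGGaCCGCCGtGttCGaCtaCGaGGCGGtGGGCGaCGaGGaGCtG
Fignl2: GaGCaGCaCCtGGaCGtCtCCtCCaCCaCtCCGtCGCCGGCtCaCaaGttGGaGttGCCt
Zbtb6, Clk4 and mt-Nd5 (40.1%, 43.2% and 37.1% GC) fell:
Zbtb6: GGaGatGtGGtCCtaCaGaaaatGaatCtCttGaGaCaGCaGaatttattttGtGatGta
Clk4: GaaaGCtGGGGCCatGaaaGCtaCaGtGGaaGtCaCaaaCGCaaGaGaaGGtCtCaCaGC
mt-Nd5: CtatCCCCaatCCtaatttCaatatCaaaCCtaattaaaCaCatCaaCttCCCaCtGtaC
G and C made up 70%, 73.3% and 63.3% of the first 3 stretches and 36.7%, 51.7% and 35% of the last 3. Tdg is an exception among the large rises, with a coding sequence of 50.1% GC and 40% in this stretch:
Tdg: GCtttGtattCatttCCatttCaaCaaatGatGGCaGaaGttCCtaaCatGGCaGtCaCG

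When each library was offset for its trend with coding GC content, 10 of 13248 genes passed (0.0755%), all higher, and 893 had an unadjusted p under 0.05. They were Serinc2, Uqcr11, Rnpepl1, Tdg, Snrpf, Cdh23, Gdf1, Tmem86b, Tmem190 and Cbx3, the last of which had not passed without offsets. Of the windows of Snrpf and Gdf1 100% occur in transcripts of other genes, and of those of Tdg 93.98%. Mean footprints were only 0.80 CPM for Tmem86b, 0.77 CPM for Tmem190 and 1.09 CPM for Gdf1. With the offsets Serinc2 changed by 1.33 (edgeR adjusted p = 0.0061), Uqcr11 by 1.22 (adjusted p = 0.0185) and Rnpepl1 by 0.65 (adjusted p = 0.0425). Trim71 stood at 1.10 (adjusted p = 0.0571) and Fignl2 at 0.80 (adjusted p = 0.27), neither past the threshold. The direction held for all 68 rises and all 40 falls that could be fitted, but the median of the rises went from 0.62 to 0.40 and that of the falls from -0.43 to -0.19. mt-Co1 stood at -0.93 (adjusted p = 0.0875). Of the 40 falls fitted, 0 passed. The highest minus the lowest GC group was 0.04 after the offsets.

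By other features the median change over all genes differed less. Coding length had a median of 1284 bases among the rises, 1922 among the falls and 1428 over all genes, and 5′ UTR length 164, 184 and 176 bases. Genes with the longest coding sequences differed from those with the shortest by 0.02 in median change, those with the longest 5′ UTRs by -0.03 and those with the longest 3′ UTRs by -0.05. By mean RNA level the difference was -0.07. The called genes did differ in this level, with a median of 50.2 CPM among the rises and 125 CPM among the falls. Over all genes the median was 28.9 CPM.

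Among Hedgehog pathway genes 1 of 39 tested rose and none fell, with a median change of 0.13 against 0.02 over all genes, where 0.512% rose. With GC offsets the median was 0.08 against 0.03. The gene that passed was Gas1 (chr13:60174405-60177365), a coreceptor that presents Shh to Ptch1. Its footprints were 47.3, 43.99 and 39.6 CPM in wild type and 60.4, 90.01 and 70.7 CPM in the mutant on RNA of 91.6, 90.2 and 103 and 107, 89.5 and 96.01 CPM. The efficiency rose by 0.70 ± 0.15 (edgeR adjusted p = 0.0441), highest in mutant pool 2 and least in pool 1, with all mutant pools above wild type. Without mutant pool 2 the value was 0.48 (adjusted p = 0.0769). Its coding sequence has 72.3% GC, and with GC offsets the change was 0.41 (adjusted p = 0.588).

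Ptch1, the receptor (chr13:63508328-63573598), had footprints of 73.4, 72.03 and 67.2 CPM in wild-type pools 1, 2 and 3 and 69.9, 102 and 78.3 CPM in the mutant pools. Its RNA was 233, 272 and 233 CPM and 206, 233 and 241 CPM. The log2 efficiencies were -1.66, -1.91 and -1.78 and -1.55, -1.18 and -1.61, higher in each mutant pool, but the change of 0.34 ± 0.11 did not pass (adjusted p = 0.114). Smo, the signal transducer released when Shh binds Ptch1 (chr6:29735503-29761365), had footprints of 23.3, 26.7 and 24.2 CPM and 31.6, 40.5 and 32.04 CPM on RNA of 128, 131 and 122 and 141, 123 and 140.5 CPM. Its change was 0.41 ± 0.12 (adjusted p = 0.102), with the pools apart. Both genes passed without mutant pool 3, Ptch1 at 0.42 (adjusted p = 0.0195) and Smo at 0.49 (adjusted p = 0.0223), in a fit that called 1005 genes, and without the filter on low counts. Neither passed in the other 20 of 22 alternatives. With GC offsets Ptch1 stood at 0.30 (adjusted p = 0.587) and Smo at 0.26 (adjusted p = 0.683).

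None of the Gli factors, which carry the signal to the genome, passed. Gli2, the main activator, stood at -0.20, -0.42 and -0.55 in wild type and 0.01, -0.06 and -0.25 in the mutant (change 0.28 ± 0.10, adjusted p = 0.158). Gli2 passed in 1 of 22 alternatives, without mutant pool 3 (0.36, edgeR adjusted p = 0.0452), and with GC offsets it stood at 0.15 (adjusted p = 0.819). Gli3, the main repressor, stood at -0.49, -0.60 and -0.67 and -0.51, -0.52 and -0.57, groups that overlapped (change 0.05 ± 0.08, adjusted p = 0.778). Gli1, a target and amplifier of the pathway with footprints of only 4.4 to 6.4 CPM, stood at 0.15 ± 0.16 (adjusted p = 0.67). Sufu, which holds Gli proteins in check, stood at 0.11 ± 0.10 (adjusted p = 0.594). The ligand Shh (chr5:28456815-28467256) had efficiencies of -0.06, 0.33 and 0.58 and 0.64, 0.15 and 0.46 (change 0.17 ± 0.14, adjusted p = 0.57), and the pools of both genotypes overlapped. The plot of Hedgehog genes gives the change of all 39.

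**Figure D4:**
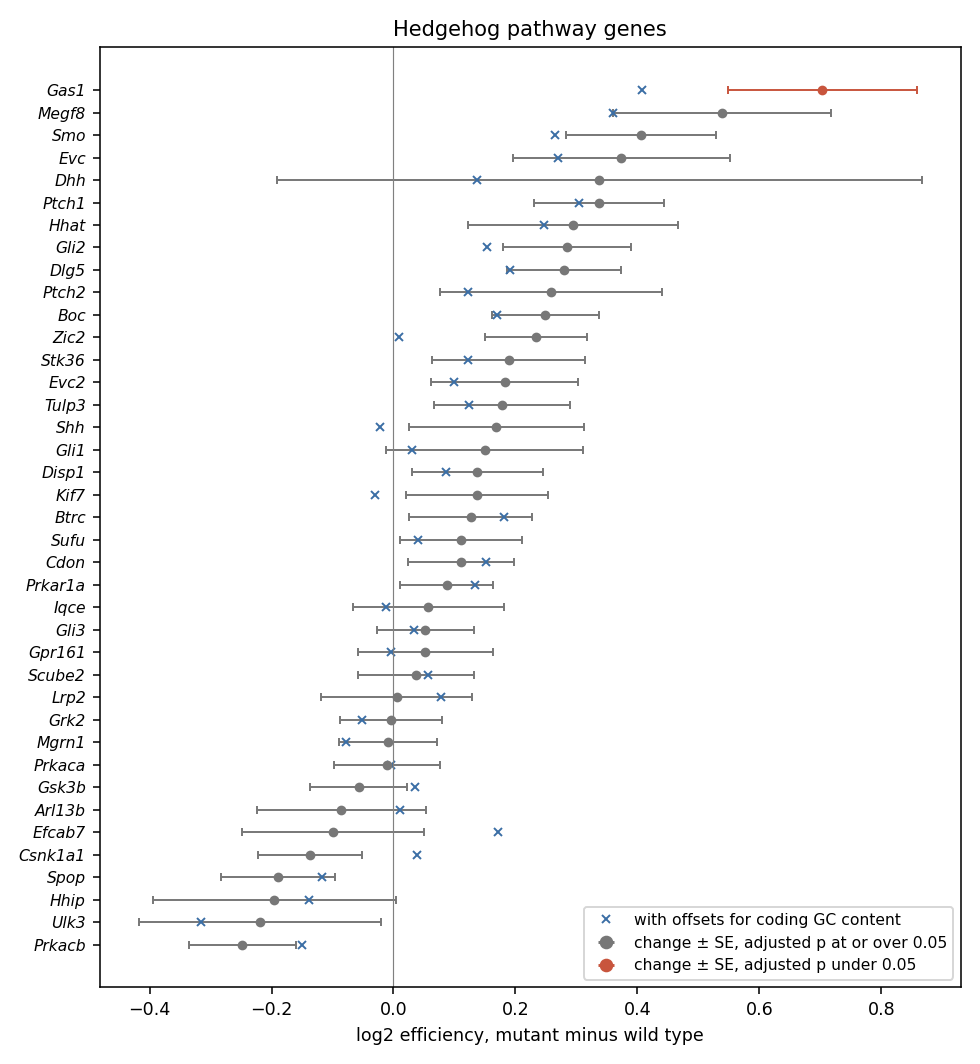
Change in log2 translational efficiency (horizontal axis, mutant minus wild type) of 39 Hedgehog pathway genes, with the SE of the fit. Crosses give the change with offsets for coding GC content. Gas1 at 0.70 is the only gene past the threshold, and 28 of the 39 lie above 0, against 7470 of 13877 over all genes tested.

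Of 31 Notch pathway genes 3 rose and none fell, with a median of 0.19, and 13 were higher and 0 lower at an unadjusted p under 0.05. Over all genes tested 0.512% rose, and 10.5% were higher and 8.06% lower at that level. Jag2, another ligand, stood at 0.49 ± 0.13 (adjusted p = 0.0697). Hes5, the repressor through which Notch keeps progenitors undifferentiated, had footprints of 105, 108 and 88.7 CPM in wild type and 129, 152 and 138 CPM in the mutant with overlapping RNA. Its change was 0.53 ± 0.09 (adjusted p = 0.0204). Dll3, a Notch ligand of newborn neurons, moved from 0.47, 0.46 and 0.39 to 1.04, 0.97 and 0.70 (change 0.46 ± 0.09, adjusted p = 0.0343), and Numbl, a Notch antagonist, from -0.36, -0.37 and -0.17 to 0.19, 0.14 and -0.01 (change 0.41 ± 0.09, adjusted p = 0.0434). The list has a median coding GC content of 58.9%, and with GC offsets its median was 0.11 and none of the 3 passed (adjusted p = 0.523, 0.623 and 0.643).

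Other signaling and patterning lists had 0 or 1 called gene. In the Wnt pathway 0 of 43 passed (median 0.12), with 7 higher and 1 lower at an unadjusted p under 0.05 (10.5% and 8.06% over all genes) and the receptor Fzd7 nearest at 0.39 ± 0.10 (adjusted p = 0.0587). In the BMP and TGF-beta pathway 0 of 33 passed (median 0.07). The inhibitory Smads had large values, Smad7 at 0.59 ± 0.15 (adjusted p = 0.0715) and Smad6, at 1.7 to 7.2 CPM of footprints, at 0.93 ± 0.25 (adjusted p = 0.0778), with mutant pool 2 highest in both. In the FGF and retinoic acid pathways 0 of 33 passed (median 0.09). Of 36 Hox genes 1 rose (0.512% over all genes), Hoxb2 at 0.39 ± 0.09 (adjusted p = 0.0441). The Hox median was 0.17, and 11 were higher and 0 lower at an unadjusted p under 0.05 (10.5% and 8.06% over all genes). Next by p were Hoxa3 at 0.51 ± 0.12 (adjusted p = 0.055) and Hoxd4 at 0.42 ± 0.11 (adjusted p = 0.0726). With GC offsets the Hox median was 0.01.

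Dorsal progenitor factors (0 of 26, median 0.06) and ventral progenitor factors (0 of 18, median -0.03) had no called gene, and both medians were below 0 with GC offsets (-0.12 and -0.17). Irx5, an intermediate-zone homeodomain factor, stood at 0.80 ± 0.19 (adjusted p = 0.0526). Among 55 postmitotic neuron factors 1 rose (0.512% over all genes). It was Pou3f1, a POU-domain factor, which rose by 0.42 ± 0.08 (adjusted p = 0.0368), from 0.24, 0.30 and 0.17 to 0.65, 0.70 and 0.63. With its 72.8% coding GC it stood at 0.12 after the offsets. Among 27 neural progenitor genes Trim71 and Hes5 rose (median 0.10), where 0.512% of all genes tested rose. Of 56 pan-neuronal genes 0 passed (median 0.02).

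No mRNA of the initiation or elongation factors passed the test. Of 12 eIF3 subunits tested 0 passed and the median was -0.06, with Eif3e at -0.19 ± 0.08 (adjusted p = 0.207) and Eif3m at -0.19 ± 0.09 (adjusted p = 0.27). Of 34 other initiation factors 0 passed (median -0.06). The smallest p was that of the helicase Eif4a1, at -1.03, -0.47 and -0.56 in wild type and -1.36, -1.32 and -1.11 in the mutant (change -0.57 ± 0.14, adjusted p = 0.0617), and 99.4% of its windows occur in other transcripts. Its paralog Eif4a2 stood at -0.32 ± 0.09 (adjusted p = 0.0774). Etf1, the release factor that ends translation, had the smallest p of 15 elongation and termination factors, of which 0 passed (-0.33 ± 0.09, adjusted p = 0.088).

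Cytosolic ribosomal protein mRNAs had a median change of 0.16 over 82 genes, and of 0.21 with GC offsets. Their median log2 efficiencies overlapped, at -1.77, -1.38 and -1.52 in wild-type pools 1, 2 and 3 and -1.83, -1.39 and -1.55 in the mutant pools. Of the 82 genes 16 were higher and 3 lower at an unadjusted p under 0.05 (10.5% and 8.06% over all genes). The single gene past the threshold (0.814% passed over all genes), Rpl23, fell from -0.79, -0.55 and -0.73 to -1.22, -1.21 and -1.08 (change -0.48 ± 0.10, adjusted p = 0.0368). Reads of this family fit pseudogenes (91.7% of the windows of Rpl23 and 95.6% of Rps20), so members cannot be told from their copies. Rps20 stood at 0.02 ± 0.14 (adjusted p = 0.968). Nuclear-encoded subunits of the respiratory chain had 2 rises among 72 (0.512% over all genes), Uqcr11 and Cox8a (0.55 ± 0.10, adjusted p = 0.0204), and a median of 0.06. Mitochondrial ribosomal proteins had 0 of 75 (median 0.01).

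Among 28 mRNAs with regulatory upstream reading frames 1 rose, where 0.512% of all genes tested did. It was Oaz1, the polyamine-controlled antizyme whose synthesis needs a frameshift (0.47 ± 0.11, adjusted p = 0.0497). Oaz1 passed in 5 of 22 alternatives, 90.8% of its windows occur in other transcripts, and with GC offsets it stood at 0.33 (adjusted p = 0.518). Atf4, the classical reporter of low initiator tRNA supply, was poorly occupied in both genotypes, at -4.23, -4.16 and -4.35 and -4.51, -4.07 and -4.01 (change 0.08 ± 0.12, adjusted p = 0.774). Odc1, the rate-limiting enzyme of polyamine synthesis, stood at -1.87, -1.83 and -1.68 and -2.31, -1.90 and -1.91 (change -0.24 ± 0.12, adjusted p = 0.266), with 83.7% of its windows shared. Sat1 (0.54 ± 0.19) and Atf5 (0.62 ± 0.22), the enzyme of polyamine breakdown and a stress transcription factor, had all mutant pools above wild type without passing (adjusted p = 0.138 and 0.146). Slc35a4 stood at 0.85 ± 0.29 with overlapping pools (adjusted p = 0.138). Targets of the integrated stress response had 0 calls among 25 (median 0.04), as had p53 targets among 31 (0.05), chaperones among 34 (0.03), cholesterol synthesis genes among 25 (0.09), selenoproteins among 20 (0.09) and immediate early genes among 24 (0.10).

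Of 57 cell cycle genes 1 fell and none rose (0.303% and 0.512% over all genes), with a median of -0.04. At an unadjusted p under 0.05, 6 were higher and 17 lower, where 10.5% and 8.06% of all genes tested were. Kif11, the motor that separates spindle poles, fell from 0.43, 0.25 and 0.44 to -0.04, -0.08 and 0.06 (change -0.39 ± 0.08, adjusted p = 0.0394). Its RNA was 200.2, 210.1 and 184 CPM in wild type and 243, 259.7 and 259 CPM in the mutant, and its footprints overlapped. With GC offsets Kif11 stood at -0.15 (adjusted p = 0.795). Hells, a chromatin remodeler of dividing cells, stood at -0.35 ± 0.08 (adjusted p = 0.0571), Ccne2, an E-type cyclin, at -0.41 ± 0.10 (adjusted p = 0.061) and Ccnd3, a D-type cyclin, at 0.37 ± 0.09 (adjusted p = 0.061). Ccnd2, another D-type cyclin, whose RNA was 99.4, 90.8 and 101 CPM and 210.4, 141 and 198 CPM, had a change in efficiency of 0.15 ± 0.09 (adjusted p = 0.395). Cilium and intraflagellar transport genes had 0 of 46 past the threshold, with 1 higher and 12 lower at an unadjusted p under 0.05 (10.5% and 8.06% over all genes) and a median of -0.11. Cep290, a protein of the ciliary transition zone, stood at -0.40 ± 0.10 (adjusted p = 0.057) and Ift74, a transport subunit, at -0.29 ± 0.09 (adjusted p = 0.0966), which turned to 0.01 with GC offsets. With GC offsets the medians of these lists were 0.02 and -0.01. Numbered Zfp genes, a group chosen after their values were seen, supplied 10 of the 42 falls and none of the rises. Of all genes tested 0.303% fell and 0.512% rose. At an unadjusted p under 0.05, 29 of the 353 Zfp genes were higher and 96 lower (10.5% and 8.06% over all genes). Their median change was -0.15, and -0.04 with GC offsets. Their median coding GC content was 47.5%.

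Replication-dependent histones had 1 rise among 55 genes (0.512% over all genes) and a median of 0.20, 0.08 with GC offsets. These mRNAs lack poly(A) tails, so in poly(A)-selected libraries the ratio does not measure their efficiency. Hist1h4j had footprints of 168, 177 and 155 CPM in wild type and 326, 409 and 391 CPM in the mutant on RNA of 1.3 to 2.1 CPM (1.17 ± 0.25, adjusted p = 0.0434), and 91.6% of its windows occur in other histone or other genes.

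Among markers of other cells in the tissue 4 genes passed, where 0.814% of all genes tested did. Of 20 erythroid markers 2 fell (0.303% over all genes), among them Rhag, a blood group glycoprotein (-0.96 ± 0.20, adjusted p = 0.039). At an unadjusted p under 0.05, 10 of the 20 were lower and 0 higher (8.06% and 10.5% over all genes). The erythroid median was -0.30, -0.31 with offsets, beside a median RNA change of 0.50. Rhag RNA was 2.60, 3.12 and 3.34 CPM in wild type and 8.42, 6.29 and 4.59 CPM in the mutant, and its footprints 8.04, 10.2 and 10.2 and 13.9, 9.26 and 8.11 CPM. Mesenchyme markers had a median of 0.34 over 25 genes, 0.17 with offsets. Their median log2 efficiencies overlapped, at 0.37, 0.74 and 0.34 in wild-type pools 1, 2 and 3 and 0.78, 0.52 and 0.67 in the mutant pools. Among them Col1a1, the main fibrillar collagen, rose by 0.65 ± 0.14 (adjusted p = 0.0448) although its pools overlapped. Col1a2, its partner chain, stood at 0.53 ± 0.13 (adjusted p = 0.061). Their summed footprints were 1952 to 2197 CPM in wild type and 3427, 2331 and 2205 CPM in mutant pools 1, 2 and 3. Tie1, an endothelial receptor, rose by 0.40 ± 0.09 (adjusted p = 0.0479), the single call among 18 endothelial markers (median 0.14). Neural crest and ganglion markers had 0 of 19 (median 0.16) and macrophage markers 0 of 18 (median 0.08). The part that the share of these cells has in other genes' values was not tested.

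**Figure D5:**
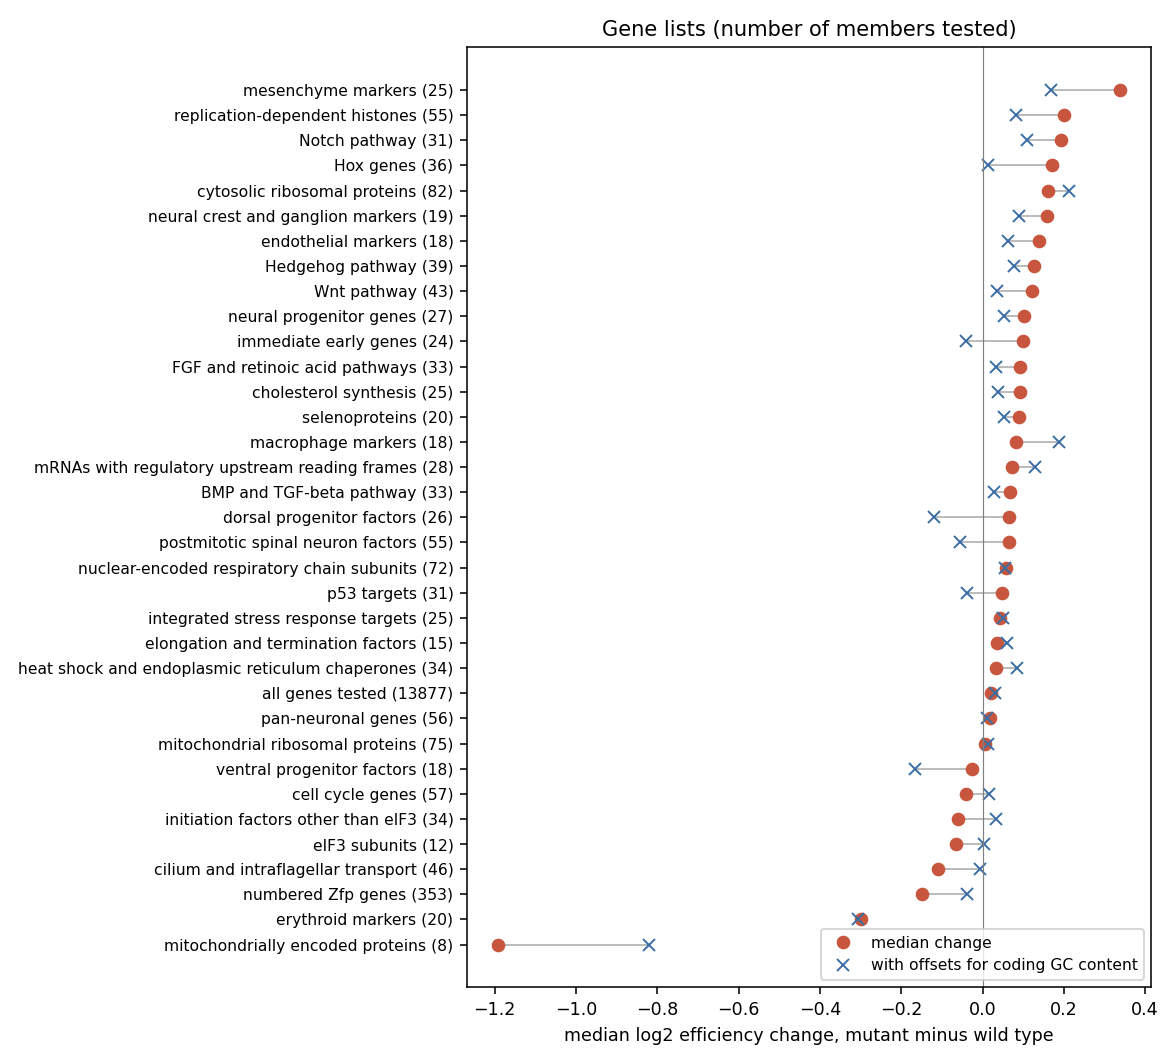
Median change in log2 translational efficiency (horizontal axis, mutant minus wild type) of 33 gene lists, the numbered Zfp genes and all genes tested, with the number of members tested in brackets. Circles are the reported fit and crosses the fit with offsets for coding GC content. Mitochondrially encoded proteins (-1.19) lie far below the other lists, and 23 of the 33 list medians lie closer to 0 with offsets.

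Counts outside the coding window, which the change above does not use, were tested in the same way and scaled with the coding library sizes. In 5′ UTR counts 777 of 10843 genes passed (7.17%), 752 higher, and the median over all genes was 0.23. Trim71 stood at 0.46 ± 0.21 (adjusted p = 0.196) there, Serinc2 at 0.91 ± 0.36 (adjusted p = 0.118) and Fignl2 at 0.48 ± 0.19 (adjusted p = 0.119). Gas2l1 stood at 0.61 ± 0.29 and Tmem203 at 0.41 ± 0.30, neither passing. Other large coding rises were level or lower in the 5′ UTR. Uqcr11 stood at 0.04 ± 0.23, Mrfap1 at 0.01 ± 0.15, Chchd2 at -0.27 ± 0.29 and Tdg at -0.53 ± 0.38. Map3k10 at 0.79 ± 0.19 (adjusted p = 0.00701), Hes5 at 0.49 ± 0.14 (adjusted p = 0.0255) and Dll3 at 0.66 ± 0.18 (adjusted p = 0.0168) rose in 5′ UTR and coding counts alike. Of the Hedgehog genes, Gli2 at 0.85 ± 0.23 (adjusted p = 0.0184) and Ptch1 at 0.74 ± 0.23 (adjusted p = 0.0421) rose in the 5′ UTR without passing in coding counts, while Smo stood at 0.45 ± 0.18 (adjusted p = 0.115). Of the 71 rises 59 could be tested in the 5′ UTR and 48 were above 0, against 72.9% of all genes. Of the 42 falls 35 could be tested and 15 were below 0. In the first 15 and last 5 codons, counted jointly, 365 of 9906 genes passed (3.68%), with a median of 0.17 over all genes. There 34 of 57 rises were above 0, against 61.6% of all genes, and 23 of 38 falls below. In these codons Ccnd2 rose by 1.26 ± 0.25 (adjusted p = 3.50e-04) and Hes5 by 0.70 ± 0.20 (adjusted p = 0.0198). The mitochondrial falls differed there. mt-Nd1 stood at -0.95 ± 0.26 (adjusted p = 0.0159), mt-Nd5 at -0.61 ± 0.23 (adjusted p = 0.124) and mt-Nd2 at -0.28 ± 0.23 (adjusted p = 0.586). mt-Cytb went the other way, at 0.55 ± 0.19 (adjusted p = 0.0836). In 3′ UTR counts 0 of 11989 genes passed (0%) by edgeR, with 1443 at an unadjusted p under 0.05. The median there was 0.38 over all genes and 1.10 over the 64 rises tested, of which 54 were above 0, against 69.8% of all genes. Of 36 falls 27 were below 0.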

How the data were processed

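The deposited table holds read counts made by the authors for the coding part, 5′ UTR and 3′ UTR of each transcript in each lane. Reads were processed with cutadapt, STAR and bedtools against mm10, per the submitters' processing notes, which name no versions, and a rule for reads that fit several transcripts is not given in the sources used here. Footprints of 28 to 31 bases and RNA fragments of 30 to 50 bases were cut from gels, per the labels' protocols. GENCODE vM21 held 121271 of the 122941 transcript identifiers in the same version and 1522 in another, and 148 unmatched ones carried 0.328% of coding counts. Lanes and runs were summed per library. Each of 22422 genes was represented by its coding transcript of highest count, and 65.7% of the genes had several. The coding part leaves out the first 15 and last 5 codons. These codons could be had only together, as the difference of 2 deposited counts, although separate values had been planned.

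Genes passed filterByExpr (minimum count 10, total 15), 13877 in all. Efficiency was tested with edgeR 4.0.16 (quasi-likelihood, TMM, R 4.3.3) as the interaction of assay and genotype with the 6 cell pools as a block and Benjamini-Hochberg adjustment at 0.05. The pairing comes from the protocol, and same-pool RNA and footprint deviations correlated across genes at 0.21, 0.23 and 0.32 in wild type and 0.57, 0.49 and 0.28 in the mutant. The biological coefficient of variation was 5.74%. Per-pool ratios are log2 of CPM with 0.5 added. GC offsets were lowess trends (span 0.3) of each library against coding GC content, which was known for 13248 genes. Alternatives used DESeq2 1.42.0 and limma 3.58.1.

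Named genes are 12 chosen ones, the 10 largest rises and falls with an adjusted p under 0.05, at least 5 CPM in both assays, pools that do not overlap and no predicted name, and up to 4 members of smallest p of each of 33 lists. Of the falls so named, 1 is not reported here. Members and lists were chosen with earlier results of these data known. A gene's share of ambiguous sequence is that of its 28-base coding windows found in transcripts of other genes.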

Additional observations from a re-analysis of the deposited data

How the results depend on the processing

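Of 20 called genes among those named by size, none changed direction in 432 values under 22 alternatives. These genes were chosen from the same data for large changes and pools that do not overlap. A change of direction was therefore unlikely from the start, and their kept signs are no support for the calls. Counts of genes passing did change, from 113 to 0 without the replicate block, 69 with a replicate block by pool and by number, 71 with DESeq2, 0 with limma on per-pool ratios, 679 without a filter, 0 with all lanes and 54 with the second run alone. They were 10 with coding GC offsets and 0 with these offsets and no replicate block, the latter chosen after seeing the data, as was leaving out the mitochondrial genes. Leaving out 1 pool gave 4 to 1005 genes. Across genotypes, deviations of same-numbered pools correlated at 0.10, 0.05 and 0.06 in RNA and at -0.09, -0.10 and -0.05 in footprints. Those of differently numbered pools ran from -0.094 to 0.026 in RNA and from -0.035 to 0.11 in footprints. Whether the pool numbers pair the genotypes was not tested. The count of RNA changes went from 52 to 394 with DESeq2 and 196 with a replicate block by number, and to 1 to 1528 without 1 pool. That of footprint changes went from 34 to 820 with DESeq2 and to 8 to 2333 without 1 pool. The causes were not tested. The difference between the highest and the lowest GC group was 0.34 to 0.46 in all fits without GC offsets, and 0.043 with them or 0.042 with them and no replicate block. Signs turned for 12 genes, none of which passed in any of those fits. With coding GC offsets Shh stood at -0.022, Eif3e at 0.073, Eif3m at 0.0081, Mcts1 at 0.10, Ift74 at 0.013 and Id4 at -0.0046, and with no replicate block as well Eif3e at 0.071, Eif3m at 0.0082, Mcts1 at 0.096, Ift74 at 0.015 and Zic1 at -0.00074. With all lanes Rps20 stood at -0.0067, Frs2 at 0.092, Mdm2 at 0.11 and Hsp90b1 at 0.021. Leaving out 1 pool gave -0.0088 to 0.30 for Shh (lowest without wild-type pool 1), -0.015 to 0.22 for Atf4 (lowest without mutant pool 3) and -0.11 to 0.22 for Rps20 (below 0 without wild-type pool 1 or mutant pool 2 or 3). Rps20 was -0.0095 with the block by number, -0.020 on per-pool ratios and -0.055 in the second run, and Atf4 was -0.13 over the whole coding sequence. With 11310846 coding counts in the shallowest footprint library, folds of genes under 5 CPM rest on few counts.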

Other observations

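Of the rises and falls that belong to no list above, 10 are given here as single genes. They were chosen after their values were seen, and no group is drawn from them. Insm1, a zinc finger factor of neurogenic progenitors, had footprints of 137, 151 and 152 CPM in wild-type pools 1, 2 and 3 and 240.2, 195 and 172 CPM in the mutant pools, and its efficiency rose by 0.38 ± 0.08 on the log2 scale (edgeR adjusted p = 0.0434). Scrt2, a neuronal repressor of the Snail superfamily, moved from 0.38, 0.46 and 0.44 to 1.06, 0.93 and 0.73 (change 0.48 ± 0.09, adjusted p = 0.0221). Cdk5r2, an activator of Cdk5 in neurons, rose by 0.44 ± 0.10 (adjusted p = 0.0462), Shank3, a scaffold of the postsynaptic density, by 0.79 ± 0.16 (adjusted p = 0.0368), and Mdk, a secreted heparin-binding growth factor, by 0.37 ± 0.08 (adjusted p = 0.0441). Their coding GC contents were 74.1%, 71.8%, 70.5%, 64.6% and 58.9%, and with GC offsets they stood at 0.07, 0.19, 0.17, 0.59 and 0.25, none past the threshold.

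H2afx, the histone variant of DNA damage foci, rose by 0.48 ± 0.10 (adjusted p = 0.0416) and Hmgn1, a nucleosome-binding protein, by 0.76 ± 0.13 (adjusted p = 0.0204). Of the windows of H2afx 36.5% occur in transcripts of other genes, and how far poly(A) selection captured its mRNA was not tested. Arid4b, a subunit of the Sin3 corepressor, fell by 0.41 ± 0.09 (adjusted p = 0.0406), and Tlk2, a kinase of chromatin assembly, by 0.38 ± 0.08 (adjusted p = 0.0434). Upf3b, a factor of nonsense-mediated decay, moved from 0.18, 0.11 and 0.31 to -0.12, -0.34 and -0.20 (change -0.43 ± 0.10, adjusted p = 0.0497). With GC offsets H2afx stood at 0.22, Arid4b at -0.17, Tlk2 at -0.19 and Upf3b at -0.20 (adjusted p = 0.749, 0.787, 0.683 and 0.773), and Hmgn1 had no coding sequence matched.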
